A study of Homo sapiens with 9 samples.

Results

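The core of the spliceosome is described here through 48 genes of the 27421 in the deposited table. They were chosen by name from what their proteins are known to do: 7 Sm proteins, 7 LSm2-8 proteins, 3 U1 proteins, 13 proteins of U2 and U2AF, 6 of the U4/U6 particle and the tri-snRNP, 7 of U5 and 5 of the Prp19 complex (NTC) and its partners. All 48 were found, and all 48 passed the filter on low values of at least 1 FPKM in at least 3 libraries, which 11245 genes passed. Levels are in FPKM, a fragment count divided by transcript length and by library depth.

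Poly(A) RNA of Huh7, a long-established liver cancer line of hepatocellular origin, was sequenced in strand-specific form. There were 9 libraries, 3 in each group: a control, whose treatment the labels do not name, and arms called shZMAT2-1 and shZMAT2-2, in which ZMAT2 was targeted. The labels state neither the hairpin sequences, the time, any clone, nor whether replicates were grown separately, so a p-value measures the spread between these libraries, which may be technical. The stated question was whether ZMAT2 acts on hepatocellular carcinoma through mRNA splicing. A gene's FPKM is its total level and does not show which isoform was made, and in bulk RNA fewer cells with a transcript and less of it per cell cannot be told apart.

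Most introns of human genes are removed by the major spliceosome, which assembles anew on each intron from small nuclear ribonucleoproteins (snRNPs). A ring of Sm proteins is loaded on the U1, U2, U4 and U5 RNAs, and a ring of LSm proteins on the U6 RNA. U1 reads the 5' splice site, U2 with U2AF and the SF3A and SF3B complexes reads the branch site and the 3' splice site, and the U4/U6.U5 tri-snRNP brings the RNAs that form the catalytic centre. The Prp19 complex then joins as U1 and U4 leave. ZMAT2, a zinc finger protein, is itself a component of the spliceosome before it is activated.

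ZMAT2 was lower in both arms. It had 36.5 ± 3.32 FPKM (SD, n = 3; 32.8 to 39.2) in the control, 13.7 ± 1.30 (SD, n = 3; 12.8 to 15.2) in shZMAT2-1 and 21.1 ± 0.923 (SD, n = 3; 20.3 to 22.1) in shZMAT2-2. That is 37.6% and 57.7% of the control. All 6 knockdown libraries were below all 3 control libraries, and the two-sided exact permutation test gave p = 0.0119, the smallest that 84 assignments allow. In limma the log2 difference was -1.35 (adjusted p = 0.0283) in shZMAT2-1 and -0.76 (adjusted p = 0.113) in shZMAT2-2. The shZMAT2-1 call was lost in TPM (adjusted p = 0.88), in a fit of only the groups compared (adjusted p = 0.279) and on leaving out any 1 library other than control 2 (adjusted p from 0.0831 to 0.237). Without control 2 both arms passed (adjusted p = 0.00951 and 0.0165).

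Libraries were not alike in how many of their fragments came from the 13 genes encoded by the mitochondrion. This mitochondrial share was 7.86%, 43.2% and 8.28% in control replicates 1, 2 and 3, 8.25%, 16.4% and 7.70% in shZMAT2-1, and 27.0%, 14.5% and 16.6% in shZMAT2-2. Thus 4 libraries were under 10% (control 1 and 3, shZMAT2-1 1 and 3) and 5 were above 14% (control 2, shZMAT2-1 2 and all of shZMAT2-2). Since shZMAT2-2 has no library with a low share, the share and the arm cannot be told apart there. The depth recovered from the values was 18410000 to 23710000 fragments, at which 3 fragments on a 1 kb transcript make 0.127 to 0.163 FPKM. The 12 markers of the hepatocellular line summed to 4055 to 7624 FPKM. Among leukocyte markers PTPRC, CD3E and CD68 were at or under 0.141 FPKM, although LYZ had 43.6 to 130.7 and CD14 2.47 to 8.74. VWF, CDH5, DCN and LRAT, of endothelial and stellate cells, were at or under 0.0313 FPKM, whereas PECAM1 had 0.662 to 1.697, PDGFRB 0.434 to 1.573, COL1A2 0.558 to 2.31 and COL1A1 0.0621 to 0.185. The summed levels ran from 47.5 to 136.4 FPKM for the leukocyte list, from 0.695 to 1.697 for the endothelial list and from 1.23 to 3.34 for the fibroblast and stellate list.

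None of the 48 members passed the test in any of the 4 comparisons (limma on log2(FPKM + 1), Benjamini-Hochberg adjusted p under 0.05 over all tested genes). Over all tested genes 0.08% passed in shZMAT2-1 against control, 0.587% in shZMAT2-2 against control, 0.542% for the mean of both arms against control and 0% for shZMAT2-2 against shZMAT2-1. At an unadjusted p under 0.05 there was 1 member in each comparison, beside 5.76%, 7%, 6.93% and 4.14% of all genes. These were SNRPB2, SF3B4, SNRPB2 again and SNRPE, in that order. The smallest adjusted p among the members was 0.805, 0.583, 0.574 and 0.657.

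What the fits could resolve was limited by the spread between replicates. The standard error of a member's log2 difference in 1 arm ran from 0.167 to 0.703, with a median of 0.265. The 95% interval of the difference lay within a log2 change of 1 in either direction for 29 members in shZMAT2-1, 35 in shZMAT2-2, 41 for the mean of the arms and 27 between the arms. For the others, which include SNRPB, SNRPD2, LSM4 and LSM7, a log2 change of 1 was not resolved.

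In shZMAT2-1, 43 of 48 estimates were above 0 (72.9% of all genes were) and the median log2 difference was 0.25, beside 0.16 over all genes. In shZMAT2-2 it was 22 of 48 (58.4% of all genes), with a median of -0.02 beside 0.05. For the mean of the arms it was 38 of 48 (71.8%), with medians of 0.11 and 0.10, and between the arms 11 of 48 (38.9%), with medians of -0.21 and -0.09. These comparisons share the control or an arm. The estimates differed between scales. In shZMAT2-1 the median over all genes was 0.16 in FPKM and 0.37 in TPM. It was -0.04 once the nuclear genes of each library were made to sum to the same total (the nuclear scale). The members' median was 0.48 in TPM and 0.01 on the nuclear scale, where 24 of 48 estimates were above 0. After median-of-ratios scaling it was 0.06 (32 of 48 above 0), beside 0.004 over all genes. It also changed with the libraries kept. Without control 2 the members' median was -0.04 in shZMAT2-1 (20 of 48 above 0) and -0.38 in shZMAT2-2 (12 of 48). For the mean of the arms it was -0.18 (15 of 48). The medians over all genes were then -0.05, -0.15 and -0.11. With shZMAT2-1 replicate 2 also left out, the members' median in shZMAT2-1 was 0.12 (33 of 47 above 0), beside -0.009 over all genes.

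**Figure D1:**
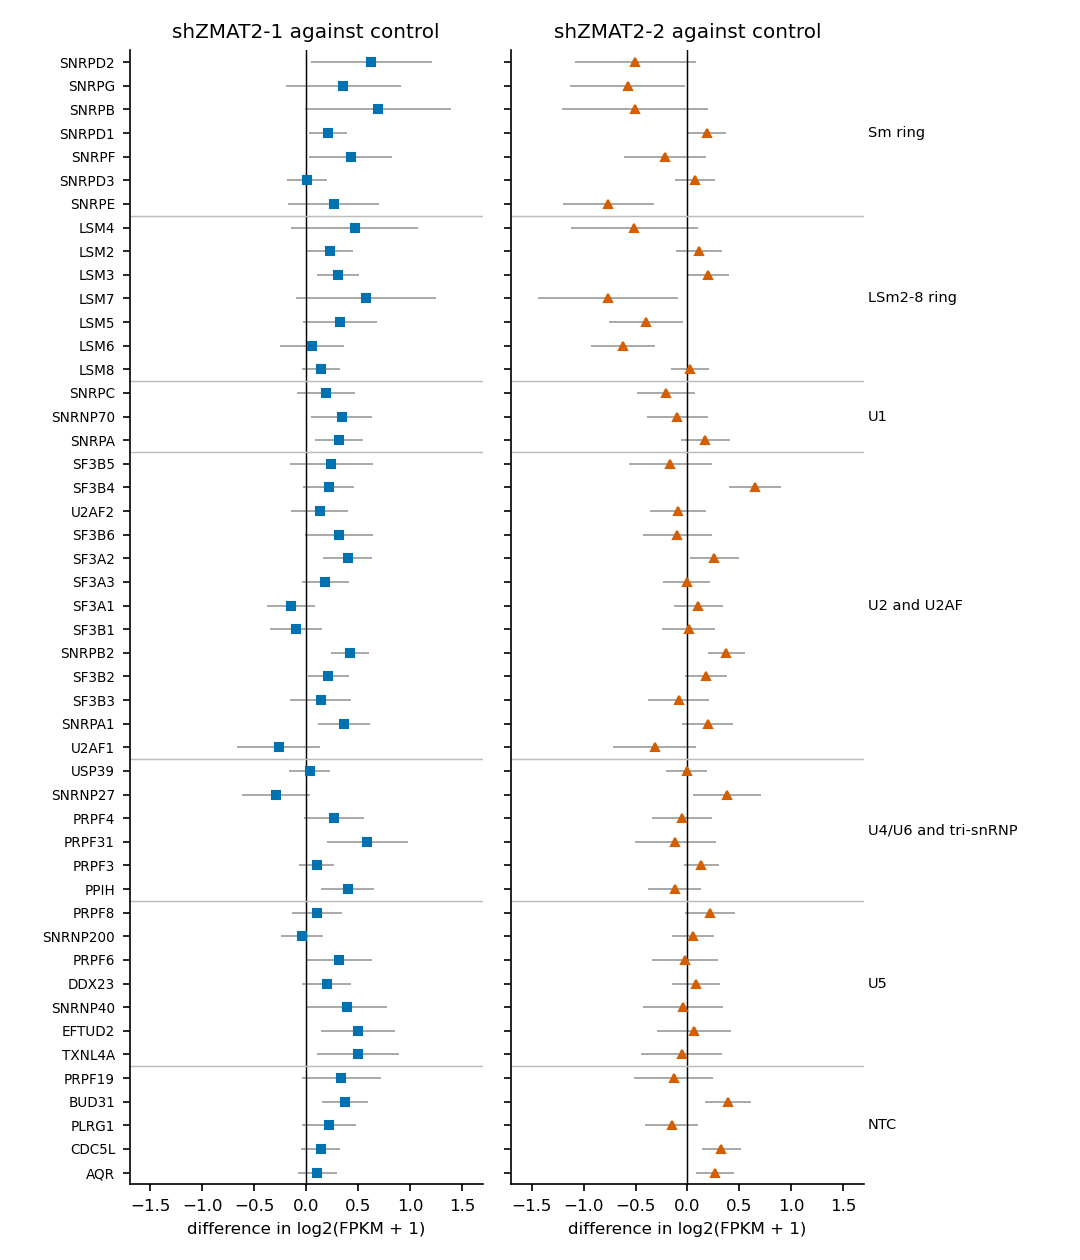
Difference in log2(FPKM + 1) of each member against the control in shZMAT2-1 (squares, left) and shZMAT2-2 (triangles, right), with bars of 1 standard error from limma, members grouped by role. In the left panel 43 of 48 points lie above 0, in the right panel 22 of 48, and no member passed the adjusted test in either.

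Members did differ between libraries, and they did so together with the mitochondrial share. Control replicate 2, the library with the highest share, was below both other controls for 43 of 48 members (85.5% of all genes) and above both for 4, SNRPD1, SF3B4, SF3A1 and SNRNP27 (10.9% of all genes). The ratio of control 2 to the mean of the other controls ran from 0.154 for SNRPB to 2.07 for SNRNP27, with a median of 0.549 over the members and 0.563 over the 10247 tested nuclear genes with a coding transcript. Over the 9 libraries, 27 members were lower in all 5 libraries above 14% than in all 4 under 10% (30.5% of all genes) and 3 were higher (5.31%), while 18 overlapped. This split was made from the share and joins libraries of different groups, so it is a description with no test. The same count was made on the nuclear scale, where the mitochondrial genes take no part. There 15 members were lower (15.6% of all genes) and 15 higher (24.4%). Whether the share or anything else moves these levels was not tested.

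**Figure D2:**
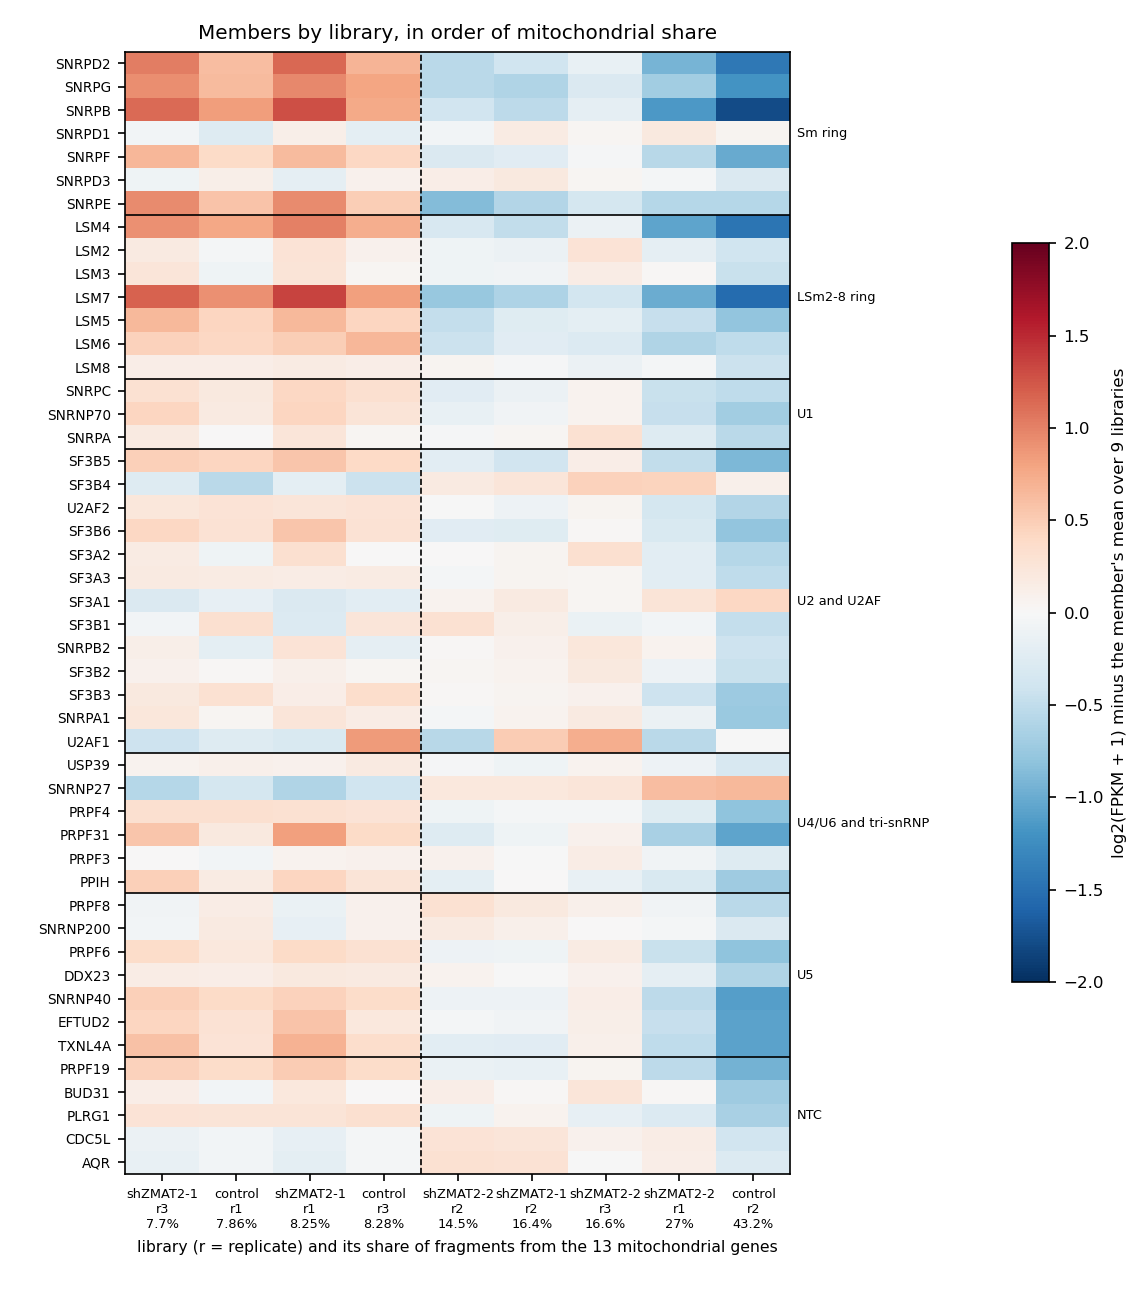
Each member (rows, by role) in each library (columns, from the lowest to the highest mitochondrial share, printed under the library), as log2(FPKM + 1) minus the member's own mean over the 9 libraries. The dashed line parts the 4 libraries under 10% from the 5 above 14%: SNRPB, SNRPD2, SNRPG, LSM4 and LSM7 go from red to blue across it, and SNRNP27, SF3A1 and SF3B4 from blue to red.

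The bases just before RefSeq's start of 7 genes are shown, because they are the extremes of that pattern and of the knockdown comparison. SNRPB, LSM7 and LSM4 had the lowest ratios of control 2 to the other controls, and SNRNP27, SF3A1 and SF3B4 the highest. In FPKM, SNRPB2 was, with BUD31, above every control library in all 6 knockdown libraries. Each line gives the 150 bases directly upstream of the start in RefSeq (GRCh38.p14), 5' to 3' on the gene's strand. For SNRPB, LSM7, LSM4, SF3A1 and SNRPB2 the gene as GENCODE places it begins inside these bases. BUD31 is not printed, since its bases there lie within the gene as GENCODE places it. Capitals mark matches, on either strand, to the letters searched: CCGGAAG (the core bound by ETS factors), CCAAT (the CCAAT box), GCATGCGC (the core of the NRF1 site), GGGCGG (the GC box bound by SP1) and TATAAA (the TATA box).
SNRPB, chr20:2470790-2470939, minus strand: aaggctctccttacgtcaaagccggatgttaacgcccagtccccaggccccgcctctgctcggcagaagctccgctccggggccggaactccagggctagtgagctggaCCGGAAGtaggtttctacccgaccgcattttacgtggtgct
LSM7, chr19:2328587-2328736, minus strand: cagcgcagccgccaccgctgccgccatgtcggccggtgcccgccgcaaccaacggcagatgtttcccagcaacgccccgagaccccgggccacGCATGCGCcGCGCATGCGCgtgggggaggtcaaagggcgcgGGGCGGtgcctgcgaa
LSM4, chr19:18323077-18323226, minus strand: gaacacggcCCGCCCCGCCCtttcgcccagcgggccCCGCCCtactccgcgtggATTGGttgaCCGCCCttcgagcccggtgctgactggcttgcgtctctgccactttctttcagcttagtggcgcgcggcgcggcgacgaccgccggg
SNRNP27, chr2:69893806-69893955, plus strand: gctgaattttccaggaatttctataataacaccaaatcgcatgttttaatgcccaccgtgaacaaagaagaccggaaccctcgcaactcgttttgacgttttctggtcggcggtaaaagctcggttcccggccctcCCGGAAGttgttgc
SF3A1, chr22:30356895-30357044, minus strand: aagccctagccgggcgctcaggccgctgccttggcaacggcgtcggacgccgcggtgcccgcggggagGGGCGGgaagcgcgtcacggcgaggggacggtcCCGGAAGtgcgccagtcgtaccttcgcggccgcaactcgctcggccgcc
SF3B4, chr1:149927804-149927953, minus strand: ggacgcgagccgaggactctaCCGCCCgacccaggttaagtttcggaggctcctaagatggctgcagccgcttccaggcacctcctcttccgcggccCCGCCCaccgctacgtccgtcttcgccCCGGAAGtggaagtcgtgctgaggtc
SNRPB2, chr20:16729876-16730025, plus strand: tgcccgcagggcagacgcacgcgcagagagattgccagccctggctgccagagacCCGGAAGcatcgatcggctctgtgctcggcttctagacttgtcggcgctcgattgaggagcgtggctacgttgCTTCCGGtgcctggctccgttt

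RefSeq's table had a promoter for 44 of the 48 members, and 36 had exactly 1. Of those 36, CCGGAAG was found before RefSeq's start of 16, beside 6.85% of all 35116 promoters over the same 150 bases. CCAAT was found in 12 (23.5% of all), GCATGCGC in 3 (2.17%), GGGCGG in 19 (36.8%) and TATAAA in 0 (6.71%). The 35116 were limited neither to genes with 1 promoter nor to the genes tested here, so the sets compared are unlike. CCGGAAG stands before RefSeq's start of SNRPB, which was low in control 2, and of SNRNP27, SF3A1 and SF3B4, which were high there. It also stands before that of SNRPB2. The match of SNRPB and the second of SNRPB2 lie within the gene as GENCODE places it. LSM7 has 3 matches to the NRF1 core, some of which overlap, and LSM4 has 4 to the GC box. A match is a match of letters only, and no binding was measured. In the annotation the 48 genes lie on 17 chromosomes, 8 of them on chromosome 19 (SNRPD2, LSM4, LSM7, SNRNP70, SNRPA, SF3A2, U2AF2 and PRPF31).

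Of the members of the Sm ring, SNRPD2 was the highest in the control (57.8 ± 34.7 FPKM, SD, n = 3) and SNRPE the lowest (20.3 ± 8.01). SNRPB (ENSG00000125835, chromosome 20, 2461634 to 2470853) encodes SmB and SmB'. It had 66.4, 9.93 and 62.9 FPKM in the control libraries, 90.8, 25.2 and 81.6 in shZMAT2-1 and 16.1, 28.0 and 32.2 in shZMAT2-2. The control alone spanned most of that range, and control 2 was 6.51-fold below the mean of controls 1 and 3. SNRPD2 (ENSG00000125743, chromosome 19, 45687460 to 45692569), which encodes SmD2, had 75.9, 17.7 and 79.6 FPKM in the control, 109.6, 36.9 and 100.7 in shZMAT2-1 and 25.2, 33.5 and 44.1 in shZMAT2-2. In both genes replicates 1 and 3 of the control and of shZMAT2-1 were high, and every other library was low. SNRPG and SNRPF, which encode SmG and SmF, had the same split, at 61.0 to 77.2 against 16.4 to 31.7 FPKM and at 36.4 to 44.5 against 13.3 to 27.4 FPKM.

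SNRPE (ENSG00000182004, chromosome 1, 203861599 to 203871152) encodes SmE and came nearest to a difference between the arms. It had 25.6, 11.1 and 24.2 FPKM in the control, 33.3, 10.9 and 33.5 in shZMAT2-1 and 11.1, 8.81 and 13.1 in shZMAT2-2. Replicate 2 of shZMAT2-1 lay among those of shZMAT2-2. The log2 difference of shZMAT2-2 from shZMAT2-1 was -1.03 ± 0.44 (SE; limma adjusted p = 0.657) and from control -0.76 ± 0.44 (adjusted p = 0.912). SNRPD1, which encodes SmD1 (ENSG00000167088, chromosome 18, 21612314 to 21633524), varied little in FPKM. Its control libraries had 28.3, 35.5 and 29.7 FPKM, those of shZMAT2-1 37.2, 38.3 and 32.8 and those of shZMAT2-2 39.2, 32.7 and 34.9. The log2 difference in shZMAT2-1 was 0.21 ± 0.19 (SE; adjusted p = 0.805), and it was -0.03 on the nuclear scale. SNRPD3, which encodes SmD3, spanned 17.0 to 24.3 FPKM over all 9 libraries.

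Sm proteins enter the ring in equal numbers, but the shares of their mRNAs in the ring's summed FPKM differed between libraries. SNRPB held 19.4% to 22.1% of the sum in the 4 libraries with a low mitochondrial share and 8.21% to 16.0% in the other 5. SNRPG held 18.8% to 21.0% against 13.5% to 15.5%, and SNRPD2 23.99% to 26.7% against 14.7% to 21.5%. SNRPD1 went the other way, from 8.47% to 9.16% up to 17.0% to 29.3%, and SNRPD3 from 4.52% to 7.22% up to 10.5% to 14.1%. The shares of SNRPE and SNRPF overlapped. A share within a library does not depend on how that library is scaled.

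**Figure D3:**
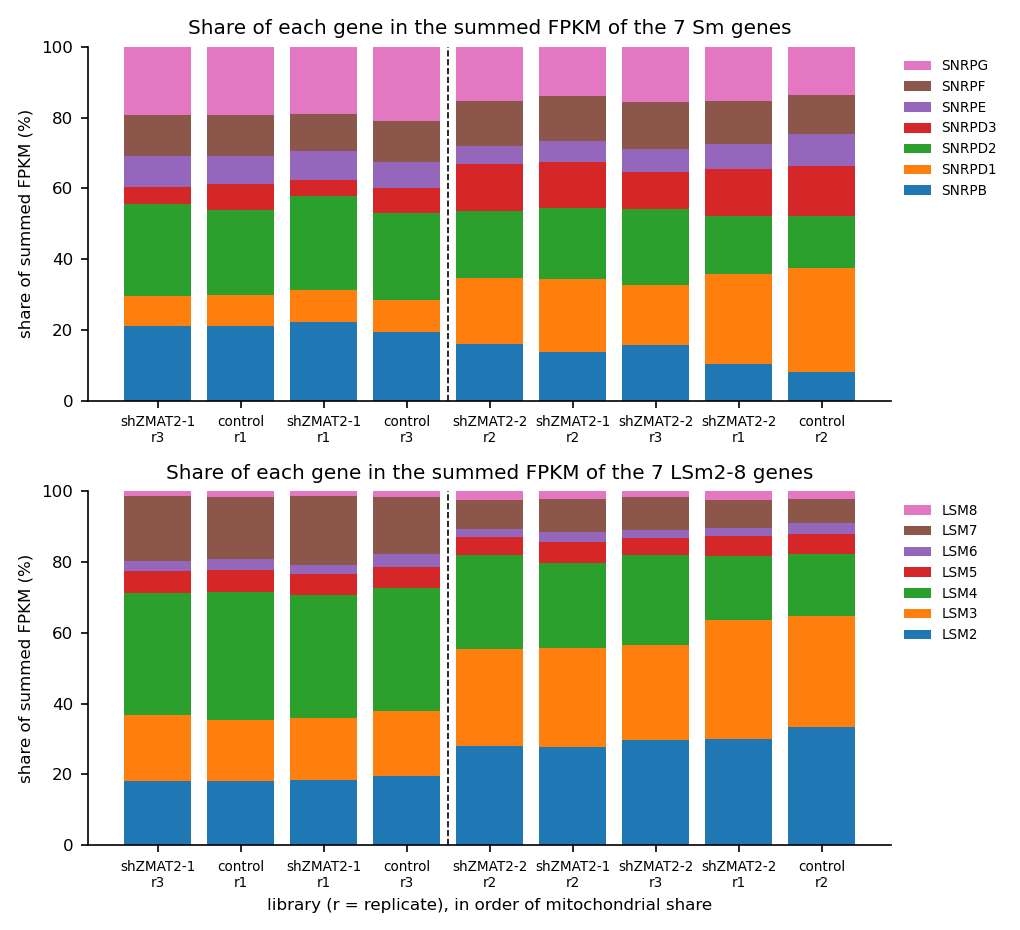
Share of each gene in the summed FPKM of the 7 Sm genes (top) and of the 7 LSm2-8 genes (bottom), 1 bar per library in order of mitochondrial share, with the dashed line between the libraries under 10% and those above 14%. SNRPB (blue, top) goes from 19.4% to 22.1% down to 8.21% to 16.0% across the line while SNRPD1 (orange, top) grows, and LSM7 (brown, bottom) goes from 16.2% to 19.5% down to 6.69% to 9.29%.

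The LSm2-8 ring, which caps the 3' end of U6 RNA, held both kinds of gene. LSM4 was its highest member in the control (50.4 ± 31.5 FPKM, SD, n = 3) and LSM8, the subunit that sets this ring apart from the cytoplasmic one, the lowest (2.63 ± 0.767). LSM4 (ENSG00000130520, chromosome 19, 18306236 to 18323112) had 69.6, 14 and 67.5 FPKM in the control, 82.5, 28.5 and 77.0 in shZMAT2-1 and 18.9, 32.1 and 37.0 in shZMAT2-2. LSM7 (ENSG00000130332, chromosome 19, 2321520 to 2328611) had 33.6, 5.37 and 31.5 FPKM, then 46.3, 11.01 and 40.8, then 8.32, 9.92 and 13.4 in the same order. As with SNRPB, the 4 libraries with a low share were the high ones. Control 2 was 4.90-fold below the other controls for LSM4 and 6.07-fold for LSM7. LSM5 was likewise split, at 11.7 to 13.8 against 4.46 to 7.25 FPKM.

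LSM6 (ENSG00000164167, chromosome 4, 146175703 to 146200000) had 5.86, 2.65 and 7.15 FPKM in the control, 6.29, 3.43 and 6.14 in shZMAT2-1 and 2.42, 2.85 and 3.27 in shZMAT2-2. All 3 libraries of shZMAT2-2 lay below all 3 of shZMAT2-1, and they overlapped the control only through control 2. The log2 difference was -0.62 ± 0.31 (SE; limma adjusted p = 0.807) from control and -0.68 ± 0.31 (adjusted p = 0.657) from shZMAT2-1. LSM3 (ENSG00000170860, chromosome 3, 14178817 to 14201122) had 32.8, 25.3 and 35.8 FPKM in the control, 41.9, 33.2 and 41.4 in shZMAT2-1 and 35.6, 32.8 and 39.0 in shZMAT2-2. Its groups overlapped, and its difference in shZMAT2-1 was 0.31 ± 0.20 (SE; adjusted p = 0.805). LSM2 spanned 26.8 to 43.3 FPKM over all libraries. Within the ring, LSM4 and LSM7 held 34.6% to 36.3% and 16.2% to 19.5% in the libraries with a low share, against 17.4% to 26.8% and 6.69% to 9.29%. LSM2 and LSM3 held 18.2% to 19.5% and 17.2% to 18.6% there, against 27.6% to 33.3% and 26.8% to 33.8%.

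**Figure D4:**
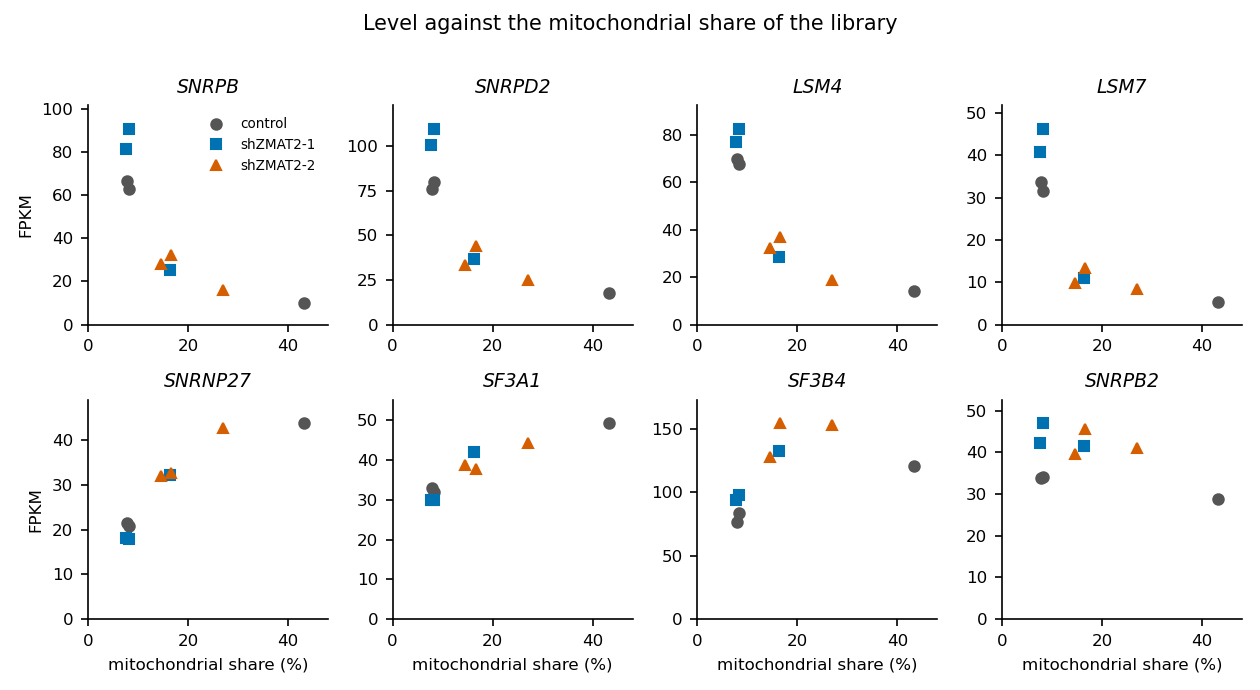
FPKM of 8 members against the mitochondrial share of the library (percent of fragments), with control (circles), shZMAT2-1 (squares) and shZMAT2-2 (triangles) and axes from 0. SNRPB, SNRPD2, LSM4 and LSM7 are high in the 4 libraries under 10% and low in the 5 above 14%. SNRNP27, SF3A1 and SF3B4 show the reverse. In FPKM, SNRPB2 is above all controls in all 6 knockdown libraries. On the nuclear scale its level in control 2 is above every shZMAT2-1 library.

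In FPKM, SNRPC and SNRNP70 of U1 were lower in all high-share libraries and SNRPA overlapped, but on the nuclear scale SNRPC and SNRNP70 overlapped and SNRPA was higher. SNRPC, the zinc finger protein U1-C, was the highest in the control (91.2 ± 25.6 FPKM, SD, n = 3) and SNRPA, U1-A, which binds a stem loop of U1 RNA, the lowest (46.8 ± 9.90). SNRPC (ENSG00000124562, chromosome 6, 34757505 to 34773857) had 101.5, 62.0 and 110 FPKM in the control, 117.4, 80.9 and 109.4 in shZMAT2-1 and 64.7, 75.4 and 92.4 in shZMAT2-2. Control 2 was its lowest library, and the difference in shZMAT2-2 was -0.20 ± 0.28 (SE; limma adjusted p = 1). SNRNP70, the U1-70K protein (ENSG00000104852, chromosome 19, 49085419 to 49108605), had 72.8, 39.1 and 76.6 FPKM in the control, 86.0, 60.8 and 85.9 in shZMAT2-1 and 46.1, 57.7 and 67.0 in shZMAT2-2. The arms differed by -0.44 ± 0.30 (SE; adjusted p = 0.657) and overlapped. SNRPA (ENSG00000077312, chromosome 19, 40750637 to 40765389) had 51.8, 35.5 and 53.3, then 61.6, 53.1 and 58.5, then 43.3, 50.7 and 64.2 FPKM, and its difference in shZMAT2-1 was 0.32 ± 0.23 (SE; adjusted p = 0.805).

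Among the 13 genes of U2 and U2AF, SF3B5 was the highest in the control (102.4 ± 44.6 FPKM, SD, n = 3) and U2AF1 the lowest (1.02 ± 0.861). SNRPB2 (ENSG00000125870, chromosome 20, 16729961 to 16742564) encodes U2-B'', which binds U2 RNA. It had 33.9, 28.9 and 34.1 FPKM in the control, 47.0, 41.4 and 42.3 in shZMAT2-1 and 41.1, 39.7 and 45.6 in shZMAT2-2. In FPKM all 6 knockdown libraries were above all 3 controls. On the nuclear scale control 2 was 1.52 times the mean of the other controls and above every library of shZMAT2-1. The means were 32.3 ± 2.92, 43.6 ± 3.00 and 42.1 ± 3.05 FPKM (SD, n = 3). The log2 difference was 0.42 ± 0.18 (SE; limma adjusted p = 0.805) in shZMAT2-1 and 0.38 ± 0.18 (adjusted p = 0.777) in shZMAT2-2, so neither passed.

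SF3B4 (ENSG00000143368, chromosome 1, 149923317 to 149927803), the SF3B subunit that holds the RNA upstream of the branch site, had the highest estimate in shZMAT2-2 of the 48. It had 76.8, 121.1 and 83.6 FPKM in the control, 97.7, 132.6 and 94.3 in shZMAT2-1 and 153.5, 127.8 and 154.7 in shZMAT2-2. In FPKM all of shZMAT2-2 lay above the control, and the 5 libraries with a high mitochondrial share lay above the other 4. On the nuclear scale the split by share remained, but control 2 was above every library of shZMAT2-2. The difference in shZMAT2-2 was 0.65 ± 0.25 (SE; limma adjusted p = 0.583), and from shZMAT2-1 it was 0.43 ± 0.25 (adjusted p = 0.657). SF3A1 (ENSG00000099995, chromosome 22, 30331988 to 30356919), a subunit of the SF3A complex that joins U2, had 32.8, 49.3 and 31.9 FPKM in the control, 30.0, 42.1 and 29.9 in shZMAT2-1 and 44.3, 38.8 and 37.8 in shZMAT2-2. Control 2 was its highest library, and all 5 libraries above 14% lay above the other 4.

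The rest of U2 was less uniform. SF3B5, a small SF3B subunit, had 126.3 to 142.1 FPKM in the libraries with a low share and 51.0 to 105.5 in the others, and SF3B6, the subunit next to the branch adenosine, 61.6 to 74.9 against 28.8 to 51.4. SF3B1, the large scaffold of SF3B that is often mutated in myeloid disease, had 43.1, 24.5 and 40.6 FPKM in the control, 28.3, 37.2 and 33.1 in shZMAT2-1 and 33.1, 42.7 and 31.3 in shZMAT2-2, with all groups overlapping. SF3A2 and SF3B2 were above all controls in all 3 libraries of shZMAT2-1 in FPKM, but not on the nuclear scale. SF3A3, SF3B3 and U2AF2, the large subunit that reads the polypyrimidine tract, were lower in all high-share libraries in FPKM only: on the nuclear scale SF3B3 and U2AF2 overlapped and SF3A3 was higher. SNRPA1, the partner of U2-B'', overlapped on both scales.

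U2AF1, the small subunit that reads the AG of the 3' splice site (ENSG00000160201, chromosome 21, 43092956 to 43107570), was an exception in its level. It had 0.398, 0.666 and 2.01 FPKM in the control, 0.352, 1.38 and 0.256 in shZMAT2-1 and 0.155, 0.137 and 1.76 in shZMAT2-2, a 14.7-fold range over the 9 libraries with a high and a low library in every group. It passed the filter with exactly 3 libraries. These values are 36 to 429 whole fragments on an exon length of 11112 bases. A near-identical copy, U2AF1L5 in GENCODE release 29 (ENSG00000275895, also on chromosome 21), holds 88.4% of the 1971 windows of 100 bases in the coding transcripts of U2AF1. That copy had 4.44 to 24.8 FPKM, and U2AF1 held 0.66% to 18.3% of their sum. Reads that match both can be counted to either or to neither, so the level of U2AF1 is uncertain. The values of U2AF1 and of the copy summed to 5.11 to 26.8 FPKM in the 9 libraries.

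In the U4/U6 particle and the tri-snRNP, USP39 was the highest in the control (33.5 ± 6.04 FPKM, SD, n = 3) and PPIH, a cyclophilin, the lowest (3.05 ± 1.32). SNRNP27 (ENSG00000124380, chromosome 2, 69893956 to 69905575), a serine- and arginine-rich protein of the tri-snRNP, had 21.5, 43.8 and 20.7 FPKM in the control, 17.8, 32.3 and 18.2 in shZMAT2-1 and 42.7, 32.0 and 32.7 in shZMAT2-2. It was at 17.8 to 21.5 FPKM in the libraries with a low mitochondrial share and at 32.0 to 43.8 in the others, the reverse of SNRPB. Its difference in shZMAT2-2 was 0.38 ± 0.33 (SE; limma adjusted p = 1). PPIH (ENSG00000171960, chromosome 1, 42658335 to 42676758) had 3.65, 1.54 and 3.97 FPKM in the control, 4.59, 3.15 and 4.79 in shZMAT2-1 and 2.36, 2.61 and 2.74 in shZMAT2-2. The arms did not overlap, but their difference of -0.52 ± 0.26 (SE; adjusted p = 0.657) did not pass, nor did that of shZMAT2-1 from control, 0.40 ± 0.26 (adjusted p = 0.805). PRPF31 and PRPF4, which hold the tri-snRNP and the U4/U6 pair together, had 22.5 to 35.2 and 23.8 to 24.6 FPKM in the low-share libraries and 8.85 to 20.7 and 10.8 to 19.1 in the others. On the nuclear scale PRPF4 stayed lower there and PRPF31 overlapped. PRPF3, their partner, spanned 9.54 to 12.97 FPKM, the narrowest range of the 48 (1.36-fold). On the nuclear scale PRPF3 was higher in all high-share libraries.

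Of the U5 proteins PRPF8, the scaffold around the catalytic centre, was the highest in the control (54.4 ± 13.4 FPKM, SD, n = 3) and TXNL4A the lowest (15.1 ± 7.24). PRPF8 (ENSG00000174231, chromosome 17, 1650629 to 1684867) had 63.4, 39.0 and 60.8 FPKM in the control, 52.0, 65.6 and 54.6 in shZMAT2-1 and 54.3, 70.7 and 61.5 in shZMAT2-2. The groups overlapped, and the difference in shZMAT2-2 was 0.21 ± 0.24 (SE; limma adjusted p = 1), which was -0.0058 without control 2. EFTUD2 (ENSG00000108883, chromosome 17, 44849948 to 44899445), the GTPase of U5, had 20.9, 7.53 and 19.7 FPKM in the control, 25.5, 16.1 and 23.2 in shZMAT2-1 and 12.1, 16.4 and 18.4 in shZMAT2-2. Its difference in shZMAT2-1 was 0.50 ± 0.36 (SE; adjusted p = 0.805). TXNL4A, a thioredoxin-like protein (ENSG00000141759, chromosome 18, 79970813 to 80033949), had 18.7, 6.81 and 19.9, then 25.4, 13.03 and 23.7, then 10.6, 13.1 and 16.6 FPKM, with -0.56 ± 0.39 between the arms (SE; adjusted p = 0.657). In both genes control 2 was the lowest library. SNRNP40 was lower in all high-share libraries in FPKM and on the nuclear scale. PRPF6 and DDX23 were lower in FPKM only: on the nuclear scale PRPF6 overlapped and DDX23 was higher. SNRNP200, the helicase that unwinds U4 from U6, had 40.6 to 56.4 FPKM with no split.

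In the Prp19 complex and its partners the ubiquitin ligase PRPF19 was the highest of all 48 genes in the control (199.6 ± 86.2 FPKM, SD, n = 3) and AQR, an intron-binding helicase, the lowest of this role (5.05 ± 0.553). BUD31 (ENSG00000106245, chromosome 7, 99408641 to 99419616), a zinc-binding protein of the activated spliceosome, had 28.9, 18.1 and 30.2 FPKM in the control, 35.0, 30.5 and 33.2 in shZMAT2-1 and 30.6, 33.2 and 35.9 in shZMAT2-2. In FPKM all 6 knockdown libraries were above all 3 controls, by a margin that is small beside the gap to control 2. On the nuclear scale control 2 was above replicate 3 of shZMAT2-1, while shZMAT2-2 stayed above the control. The means were 25.7 ± 6.65, 32.9 ± 2.28 and 33.2 ± 2.66 FPKM (SD, n = 3). The differences were 0.37 ± 0.22 (SE; limma adjusted p = 0.805) in shZMAT2-1 and 0.39 ± 0.22 (adjusted p = 0.912) in shZMAT2-2. PLRG1, a WD40 protein of the core (ENSG00000171566, chromosome 4, 154535005 to 154550400), had 17.9, 8.998 and 18.6 FPKM in the control, 17.7, 15.4 and 18.0 in shZMAT2-1 and 11.99, 13.7 and 13.1 in shZMAT2-2. The arms did not overlap, and their difference was -0.37 ± 0.26 (SE; adjusted p = 0.657). CDC5L, another core protein, and AQR were above all controls in all 3 libraries of shZMAT2-2 in FPKM, but not on the nuclear scale.

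**Figure D5:**
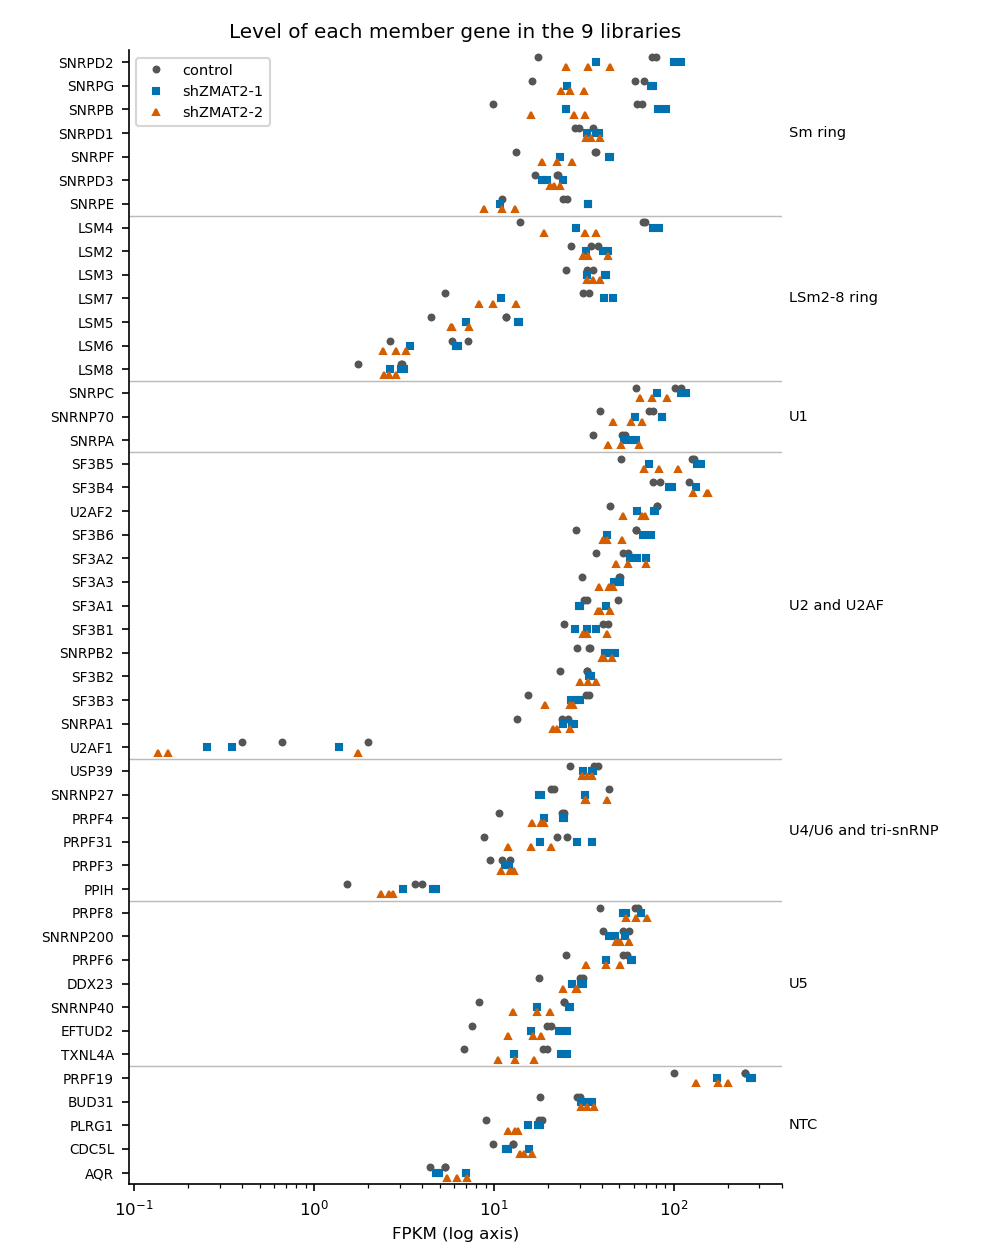
FPKM (log axis) of every member in the 9 libraries, by role, with control (circles), shZMAT2-1 (squares) and shZMAT2-2 (triangles). PRPF19 has the highest control mean (199.6 FPKM) and U2AF1 the lowest (1.02 FPKM), and for 43 of 48 members control replicate 2 lies below the other controls.

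Counted over the members in FPKM, groups seldom stood clear of each other. In 2 of 48 all knockdown libraries were above all controls (4.69% of all genes), and in 0 were all below (0.685%). For shZMAT2-1 against control it was 4 higher (SF3B2, SF3A2, BUD31 and SNRPB2; 9.1% of all genes) and 0 lower (1.83%). For shZMAT2-2 it was 5 higher (AQR, CDC5L, BUD31, SNRPB2 and SF3B4; 11.9%) and 0 lower (1.52%). Between the arms 0 were higher in shZMAT2-2 (5.59%) and 5 lower (PRPF4, LSM6, PLRG1, PPIH and SF3A3; 9.28%). None of these counts of members was far above its share over all genes. Of the members named here as higher than the control, only BUD31 in shZMAT2-2 stayed clear of it on the nuclear scale. The counts over all genes were not made on that scale. In the 4 libraries with a low share, replicates 1 and 3 of shZMAT2-1 were above both control replicates for 28 members (35.3% of all genes) and below both for 12 (37.5%). With 2 libraries a side this has no test of its own.

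Leaving out control 2 changed the size of many of these differences. Without it, the log2 difference of BUD31 from control was 0.15 in shZMAT2-1 and 0.16 in shZMAT2-2, whereas SNRPB2 stayed at 0.35 and 0.30. In shZMAT2-1, EFTUD2 was then at 0.06, PPIH at 0.09, SNRPA at 0.13 and LSM3 at 0.17, each well under the value with all libraries. With shZMAT2-1 replicate 2 also left out, they were at 0.25, 0.24, 0.19 and 0.27, with BUD31 at 0.20 and SNRPB2 at 0.38. In shZMAT2-2 without control 2, SNRPE was at -1.13, LSM6 at -0.96, SNRPC at -0.46, SNRNP27 at 0.72 and SF3B4 at 0.85. Each was farther from 0 than with all libraries. The adjusted p in limma without control 2 was 0.0559 for SF3B4 and 0.0615 for LSM6 in shZMAT2-2, so that no member passed there either.

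Some calls appeared once the mitochondrial share was modelled, or once control 2 and shZMAT2-1 replicate 2 were both left out. With the log2 mitochondrial sum as a covariate, BUD31 (0.48, adjusted p = 0.0119), SNRPB2 (0.41, adjusted p = 0.0245) and SF3B4 (0.55, adjusted p = 0.00869) were higher in shZMAT2-2 and LSM6 (-0.46, adjusted p = 0.046) lower in limma, beside 8.38% and 1.47% of all genes. For the mean of the arms BUD31, SNRPB2 and SF3B4 were higher (7.94% of all genes) and 0 lower (1.81%). With control 2 and shZMAT2-1 replicate 2 both left out, 47 members were tested. Then 2 were higher in shZMAT2-2 (SF3B4 and SNRNP27; 6.8% of all genes) and 18 lower (23.8%), among them 5 of the Sm genes (SNRPB, SNRPD2, SNRPE, SNRPF and SNRPG) and LSM4, LSM5, LSM6 and LSM7. For the mean of the arms SF3B4 was higher (1.78%) and LSM6 lower (2.3%). Between the arms 3 were higher in shZMAT2-2 (SF3A1, SF3B4 and SNRNP27; 13%) and 22 lower (29.5%). That fit sets 2 control and 2 shZMAT2-1 libraries of 7.70% to 8.28% against 3 shZMAT2-2 libraries of 14.5% to 27.0%, so arm and share cannot be told apart in it. Over all alternatives the adjusted p ran from 0.0119 to 1 for BUD31, from 0.0025 to 1 for SF3B4 and from 0.00109 to 1 for LSM6 in shZMAT2-2.

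The annotated length of a gene's longest coding transcript went with its ratio in control 2. Which transcript was expressed was not measured. Across the 48 members the ratio of control 2 to the other controls had a Spearman correlation of 0.408 with the length of the longest coding transcript and -0.16 with its GC content. Across 10247 tested nuclear genes the same correlations were 0.352 and -0.361. The points share the same 3 libraries and genes are not independent replicates, so these are descriptions with no p. SNRPB and SNRNP27, at opposite ends of that ratio, have longest coding transcripts of 1154 and 1802 bases. In GENCODE 12 members have named pseudogenes, 65 in all, led by SNRPG with 20, SNRPC with 18 and SNRPE with 9, and the labels do not say how reads shared with them were counted.

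Other spliceosomal genes gave the same count. Of 22 genes of snRNP assembly and tri-snRNP maturation, 11 tested of 12 of the minor spliceosome, 14 further NTC and related proteins and 23 tested of 24 helicases and step 2 or U7 factors, 0 passed in any of the 4 comparisons (limma). Over all tested genes 0.08%, 0.587%, 0.542% and 0% passed, in the order given above. At an unadjusted p under 0.05 shZMAT2-1 and the mean of the arms had 0 in each of these lists, beside 5.76% and 6.93% of all genes. There was 1 gene of snRNP assembly, ECD, in shZMAT2-2 (7% of all genes) and 1 of the NTC list between the arms (4.14%). The smallest p of each list in the mean of the arms belonged to ECD, CENATAC, BCAS2 and SLU7. ECD, which binds PRPF8, had 10.8 ± 0.541, 12.3 ± 1.84 and 14.7 ± 0.845 FPKM (SD, n = 3) in control, shZMAT2-1 and shZMAT2-2, with a log2 difference of 0.28 ± 0.15 for the mean (SE; limma adjusted p = 0.843). CENATAC, of the minor spliceosome, had 2.45 ± 0.601, 3.68 ± 0.793 and 3.26 ± 0.750 FPKM (SD, n = 3; limma adjusted p = 0.786). BCAS2, of the NTC, and SLU7, a step 2 factor, differed by 0.22 ± 0.18 and 0.26 ± 0.16 (SE).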

How the data were processed

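Poly(A) RNA of 9 Huh7 libraries was sequenced, 3 in each of 3 groups. The authors deposited 1 table of FPKM per gene; HISAT, featureCounts and DESeq2 are listed per the submitters' processing notes, and no source used here names the genome build. Groups were taken from the sample titles. The table holds no counts. The depth of each library was recovered from single-exon genes, where values came out as whole fragments within 0.1 for 99.9% to 100% of 855 to 994 values. No replicate pair was the same library deposited more than once: the closest, control 1 and 3, differed by a chi-square of 3.62 per degree of freedom.

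Values were tested as log2(FPKM + 1) for genes of at least 1 FPKM in at least 3 libraries (11245 of 27421), with limma 3.58.1 (R 4.3.3), a mean-variance trend and the group as the only term, fitted over all 9 libraries. P-values are two-sided and Benjamini-Hochberg adjusted over all tested genes, with a threshold of 0.05. Fold changes on this scale understate those of low genes. The fit was tested on simulated data with independent noise for each gene. That simulation held no shift shared by the genes of a library, so it does not cover the differences in mitochondrial share. Tables and figures used Python 3.11.15, pandas 2.3.3 and matplotlib 3.10.9. All 48 gene identifiers matched GENCODE release 29 (GRCh38), and positions are from it. Since the build of the files is not given, these positions are the annotation's own.

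The members and lists were chosen with earlier results of these data known. Members given with statistics are, in each role, those with the smallest unadjusted p in shZMAT2-1, in shZMAT2-2 or between the arms, and the highest and lowest control means are given for each role; other spliceosomal genes are named by the smallest p of their list in the mean of the arms. Other members were picked after their values were seen, and so were the limits of 10% and 14% on the mitochondrial share. Alternatives were another pseudocount (0.1), no filter or a filter of 5 FPKM, TPM, other scalings, a replicate block, each library left out, control 2 and shZMAT2-1 replicate 2 left out together, a mitochondrial covariate, no trend, and fits of only the groups compared.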

Additional observations from a re-analysis of the deposited data

How the results depend on the processing

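No member passed in any comparison under another pseudocount, no filter, a filter of 5 FPKM, TPM, scaling to nuclear genes, median-of-ratios or quantile scaling, no trend, fits of only the groups compared, or with any 1 library left out. The exceptions were the fits without control 2 and shZMAT2-1 replicate 2 together and those with the mitochondrial covariate. Without both libraries 20 members were called in shZMAT2-2, 2 for the mean of the arms and 25 between the arms. Of all genes, 6.8% were then higher and 23.8% lower in shZMAT2-2. The shares were 1.78% and 2.3% for the mean, and 13% and 29.5% between the arms. With the covariate 4 members were called in shZMAT2-2 (8.38% of all genes higher, 1.47% lower) and 3 for the mean (7.94% and 1.81%). The members' median in shZMAT2-2 ran from -0.377 to 0.121 when 1 library was left out, lowest without control 2, and was -0.377 without both libraries. SNRPD1 in shZMAT2-1 was -0.0301 on the nuclear scale and -0.0423 after quantile scaling, and PRPF8 in shZMAT2-2 was -0.0058 without both libraries and ran from -0.0058 (without control 2) to 0.338 with 1 library left out. The cause was not tested.

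For ZMAT2 in shZMAT2-1 the log2 difference was -1.17 in TPM (limma adjusted p = 0.88) and -1.35 in a fit of only the groups compared (adjusted p = 0.279). It ran from -1.42 to -1.30 with 1 library left out, with an adjusted p of up to 0.237. In shZMAT2-2 it ran from -0.84 to -0.71 with 1 library left out and passed without control 2 (adjusted p = 0.0165). It was -0.84 without both libraries (adjusted p = 0.00143) and -0.74 with the covariate (adjusted p = 0.00169).

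Counts over all genes moved more. In shZMAT2-1 the 9 calls became 0 in TPM, 4 at a filter of 5 FPKM, 5 with no trend, 62 on the nuclear scale, 77 by median of ratios, 79 by quantiles, 128 without both libraries, 419 with the covariate and 0 to 26 with 1 library left out. In shZMAT2-2 the 66 became 0, 15, 159, 194, 195, 3400 and 1107 under TPM, the filter, these 3 scalings, both libraries out and the covariate, and 1 in a fit of only the groups compared. With 1 library left out they ran from 0 to 263. For the mean of the arms the 61 became 1, 25, 181, 203, 209, 454 and 1096 in that order, and 0 to 143 with 1 library left out. Between the arms 0 became 4726 without both libraries.

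With a replicate block 0 members and 13, 52, 58 and 0 genes were called in the 4 comparisons. The correlation of same-numbered libraries ran from -0.763 to 0.777, so the numbers were not shown to pair the libraries. At these depths 3 fragments on 1 kb make at most 0.163 FPKM, so depth limits only the lowest members. Intervals cover the spread between these libraries.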
